A study of Mus musculus with 12 samples.

Results

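Slc44a5, Tgfa, Igsf5 and Dab2 are 4 of the 49315 genes counted in brain endothelial cells of mouse embryos that lacked Gpr124 or its intracellular domain. They were chosen by their low mRNA levels in each mutant relative to wild type, so those differences are described here without a test. All 4 were among the 16637 genes with enough reads to be tested. CD31+ cells, negative for CD140b and CD45 and for the dead-cell dye 7-AAD, were sorted from the E15.5 forebrain, and the RNA of each embryo made 1 library. There were 4 wild-type embryos (JE1, JE6, KE8 and LE6), 4 Gpr124ΔC/ΔC embryos (JE3, JE4, LE2 and LE5) and 4 Gpr124-/- embryos (KE4, ME1, ME4 and ME5). The ΔC allele was made by CRISPR/Cas9 in zygotes and carries a V5 tag and a stop codon ahead of the intracellular domain, which leaves the extracellular and transmembrane domains. The null allele is a lacZ allele, embryos of each line came from heterozygous parents, and both alleles are germline changes present in every cell of the embryo, so the sorted cells were not the only cells affected. The labels do not say which embryos were littermates, and the study addressed whether the intracellular domain is needed for endothelial WNT signaling.

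GPR124, whose gene is listed as Adgra2, works with the membrane protein RECK to let brain endothelial cells respond to the ligands WNT7A and WNT7B through β-catenin. This signal drives vessel growth into the embryonic forebrain and the program of the blood-brain barrier (BBB). The 4 genes have separate roles: Slc44a5 belongs to the choline transporter-like family, Tgfa encodes a membrane-anchored ligand of the EGF receptor, Igsf5 encodes the junctional adhesion molecule JAM4, and Dab2 encodes a clathrin adaptor that gathers lipoprotein receptors for endocytosis.

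The promoters of 3 of the 4 genes were matched in RefSeq on GRCm38.p6 and are shown because the genes were low in the same libraries. Each run is 300 bases on the plus strand, from 250 bases before the annotated start to 50 bases after it, and capitals mark the bases from the start site onward. Slc44a5 lies at chr3:153973186-153973485 and Tgfa at chr6:86194972-86195271. Dab2 has 2 annotated starts, an outer one at chr15:6299539-6299838 and an inner one at chr15:6386498-6386797.
Slc44a5: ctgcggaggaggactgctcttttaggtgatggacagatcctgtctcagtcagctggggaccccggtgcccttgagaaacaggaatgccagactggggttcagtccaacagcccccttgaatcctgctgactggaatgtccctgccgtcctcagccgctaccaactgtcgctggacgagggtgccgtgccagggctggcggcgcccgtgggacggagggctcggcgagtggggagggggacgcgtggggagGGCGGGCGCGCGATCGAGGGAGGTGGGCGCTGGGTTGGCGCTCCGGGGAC
Tgfa: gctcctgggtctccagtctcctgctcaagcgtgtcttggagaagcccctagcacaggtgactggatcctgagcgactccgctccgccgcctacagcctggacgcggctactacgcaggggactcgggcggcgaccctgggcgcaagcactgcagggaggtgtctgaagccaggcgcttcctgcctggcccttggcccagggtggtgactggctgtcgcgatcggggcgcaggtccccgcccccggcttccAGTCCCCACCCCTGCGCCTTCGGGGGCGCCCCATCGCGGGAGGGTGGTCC
Dab2, outer: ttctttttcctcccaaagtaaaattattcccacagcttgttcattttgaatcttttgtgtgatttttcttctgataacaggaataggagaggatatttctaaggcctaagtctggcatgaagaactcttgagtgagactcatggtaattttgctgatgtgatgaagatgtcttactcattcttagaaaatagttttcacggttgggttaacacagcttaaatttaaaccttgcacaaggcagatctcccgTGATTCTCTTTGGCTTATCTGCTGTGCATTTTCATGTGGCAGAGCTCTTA
Dab2, inner: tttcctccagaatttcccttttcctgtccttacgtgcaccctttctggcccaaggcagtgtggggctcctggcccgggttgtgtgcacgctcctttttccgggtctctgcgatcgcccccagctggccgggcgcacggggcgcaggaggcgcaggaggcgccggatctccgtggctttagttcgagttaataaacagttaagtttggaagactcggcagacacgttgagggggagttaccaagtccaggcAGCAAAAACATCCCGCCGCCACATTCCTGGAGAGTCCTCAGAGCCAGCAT

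These promoters differed in base composition. G and C made up 67.7% of the bases at Slc44a5 and 70.7% at Tgfa, with 23 and 24 CpG dinucleotides, against medians of 52.7% and 7 over the 32851 promoters of the same table. The outer Dab2 promoter was AT-rich, with 37.7% G and C and 2 CpG, whereas the inner one had 59.3% and 19 CpG. Counts per gene do not tell which Dab2 start was used. The letters CTTTGA, the core of TCF/LEF sites through which β-catenin acts, and GTAAACA, the forkhead core, were searched on both strands. Neither was in any of the 4 windows, and they occur in 16.0% and 3.65% of all promoters of this length.

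Slc44a5 (ENSMUSG00000028360) occupies 153973436 to 154271722 of chromosome 3 (GRCm38, plus strand). Tgfa (ENSMUSG00000029999) spans 86195223 to 86275719 of chromosome 6, plus strand. Dab2 (ENSMUSG00000022150) spans 6299788 to 6440712 of chromosome 15, plus strand. Igsf5 (ENSMUSG00000000159) is annotated from 96361668 to 96525580 of chromosome 16, plus strand, and runs through Pcp4, a calmodulin-binding protein gene on the same strand. Of the 2766 exon bases of Igsf5, 243 (8.79%) are also exon of Pcp4, so reads there cannot be assigned to one gene. Pcp4 had a mean of 34.3 reads per library, and its log2 fold change against wild type was 0.09 (adjusted p = 0.915, edgeR) in Gpr124-/- and 0.07 (adjusted p = 0.985, edgeR) in Gpr124ΔC/ΔC. Exons of Slc44a5 share 113 bases, and those of Tgfa 118 bases, with lowly counted transcripts on the minus strand, whereas Dab2 shares none.

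The libraries held 13877572 to 22551163 reads on genes. Adgra2 averaged 38.6 ± 10.4 TPM in wild type, 43.4 ± 13.7 in Gpr124ΔC/ΔC and 4.86 ± 0.988 in Gpr124-/- (SD, n = 4 each). TPM divides reads by gene length and scales each library to one total. The short transcript Gm23935 took 14.12% of the TPM of the Gpr124ΔC/ΔC library JE3 and 12.46% of the wild-type library JE6, against 1.22% to 3.04% in the other 10, which lowers the TPM of every other gene in those 2. Levels are therefore also given, where it matters, as CPM, reads relative to the library total after scaling by edgeR's TMM factors. In these bulk libraries, fewer cells that express a gene and less RNA per cell cannot be told apart.

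Slc44a5, the choline transporter-like gene, had the largest differences of the 4 in both mutants. Its TPM was 8.73 in JE1, 7.34 in JE6, 11.3 in KE8 and 15 in LE6, the wild-type embryos. In Gpr124ΔC/ΔC it was 0.546 in JE3, 1.25 in JE4, 1.09 in LE2 and 1.71 in LE5. In Gpr124-/- it was 0.291 in KE4, 0.446 in ME1, 0.58 in ME4 and 0.39 in ME5. Every mutant embryo was below every wild-type embryo, and the mutant means were 10.9% and 4.03% of the wild-type mean. The log2 fold change from the counts was −3.29 (standard error 0.294) in Gpr124ΔC/ΔC, the 8th lowest among the tested genes, and −4.64 (standard error 0.32) in Gpr124-/-, the 30th lowest. Few reads carried the mutant values, 165 in all over the 4 Gpr124ΔC/ΔC libraries and 76 over the 4 Gpr124-/- libraries, against 2070 in wild type. In Gpr124-/- the spread between embryos, a coefficient of variation of 27.6% in CPM, was little above the 24.2% that counting alone would give.

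Tgfa, the EGF receptor ligand, was low in both mutants, at 15.3% and 12.1% of the wild-type mean in Gpr124ΔC/ΔC and Gpr124-/-. Wild-type TPM was 19.2 in JE1, 14.2 in JE6, 14.4 in KE8 and 13.5 in LE6. Gpr124ΔC/ΔC embryos had 1.85 (JE3), 3.29 (JE4), 1.65 (LE2) and 2.56 (LE5). Gpr124-/- embryos had 1.6 (KE4), 1.27 (ME1), 2.38 (ME4) and 2.2 (ME5). The 2 mutants overlapped, and both stayed below all wild-type embryos. The log2 fold changes were −2.80 (standard error 0.244) in Gpr124ΔC/ΔC and −3.08 (standard error 0.247) in Gpr124-/-, so that the difference in Gpr124ΔC/ΔC was 90.8% of that in Gpr124-/- on the log2 scale. Among the tested genes these ranked 16th and 112th from the lowest.

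Igsf5, the junctional molecule, stood between wild type and Gpr124-/- in Gpr124ΔC/ΔC embryos. Its TPM in wild type was 19.1 in JE1, 14.1 in JE6, 19.8 in KE8 and 23.5 in LE6. It was 1.82 in JE3, 4.86 in JE4, 5.57 in LE2 and 7.53 in LE5, all Gpr124ΔC/ΔC. It was 1.25 in KE4, 1.15 in ME1, 1.7 in ME4 and 1.78 in ME5, all Gpr124-/-. The 3 genotypes did not overlap, although JE3 came close to the Gpr124-/- embryos. Gpr124ΔC/ΔC was also the most variable group, with a coefficient of variation of 43.5% in CPM against 15.2% in wild type and 21.8% in Gpr124-/-. On the log2 scale the difference from wild type was −2.06 (standard error 0.29) in Gpr124ΔC/ΔC and −3.72 (standard error 0.319) in Gpr124-/-. Without JE3 the value in Gpr124ΔC/ΔC was −1.81.

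Dab2, the clathrin adaptor, was the most abundant of the 4 and had the smallest differences. In wild type its TPM was 58.2 in JE1, 52.1 in JE6, 64.9 in KE8 and 73.3 in LE6. Among Gpr124ΔC/ΔC embryos it was 25.1 in JE3, 31.3 in JE4, 40.9 in LE2 and 42.6 in LE5. Among Gpr124-/- embryos it was 28.8 in KE4, 15.8 in ME1, 21.5 in ME4 and 12.5 in ME5. Mutant and wild-type embryos did not overlap, but KE4 was above JE3. Relative to wild type it differed by −1.71 (log2, standard error 0.202) in Gpr124-/- and −0.92 (standard error 0.198) in Gpr124ΔC/ΔC. A gene is called here when its adjusted p is below 0.05 and its log2 fold change is beyond 1 in either direction, and the value of Dab2 in Gpr124ΔC/ΔC, the 436th lowest, did not pass the second condition.

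**Figure D1:**
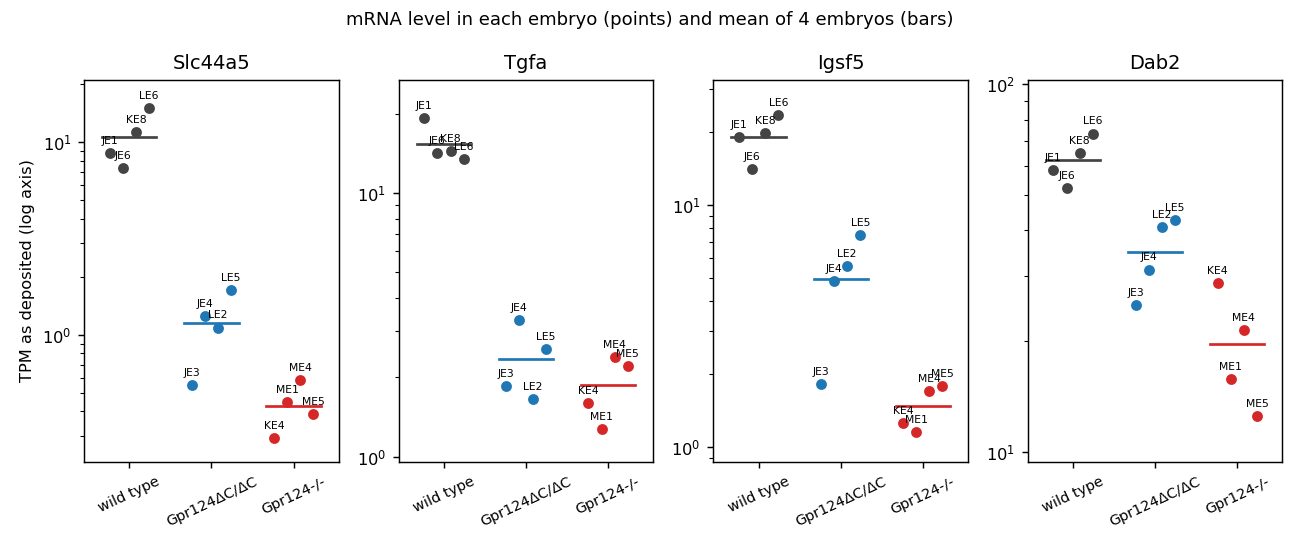
TPM of Slc44a5, Tgfa, Igsf5 and Dab2 (log axes with a separate range in each panel) in the 12 embryos, with 1 point per embryo and a bar at the mean of the 4 embryos of a genotype. All 8 mutant embryos lie below the 4 wild-type embryos in each panel, and the mutants overlap for Slc44a5, Tgfa and Dab2 but not for Igsf5.

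With both thresholds, 4 of the 4 genes were called lower in Gpr124-/-, where 4.21% of all tested genes were called lower and 5.67% higher. In Gpr124ΔC/ΔC, 3 of the 4 were called lower, against 1.03% of all tested genes lower and 0.89% higher. Since low values in these comparisons chose the genes, nothing is read from these counts. The median log2 fold change of all tested genes was −0.0097 in Gpr124-/- and 0.0056 in Gpr124ΔC/ΔC.

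The order of the genes by TPM, a level per length, changed between genotypes. In wild type it was Dab2 (62.1 ± 9.12; SD, n = 4), Igsf5 (19.1 ± 3.83), Tgfa (15.3 ± 2.61) and Slc44a5 (10.6 ± 3.38), and only the range of Dab2 was separate from that of its neighbour. In Gpr124ΔC/ΔC the order was the same, Dab2 at 35.0 ± 8.27 (SD, n = 4), Igsf5 at 4.95 ± 2.37, Tgfa at 2.34 ± 0.743 and Slc44a5 at 1.15 ± 0.481, again with only the range of Dab2 apart. In Gpr124-/- Tgfa (1.86 ± 0.517, SD, n = 4) was above Igsf5 (1.47 ± 0.314), with overlapping embryos, between Dab2 (19.7 ± 7.16) and Slc44a5 (0.427 ± 0.121). In wild type, Dab2 was above 82.8% of the tested genes and Slc44a5 above 47.2%, so Slc44a5 was an mRNA of middling level there. In Gpr124-/- Dab2 was still above 59.5% of tested genes, whereas Slc44a5 was above 3.28%.

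The comparison of Gpr124-/- with Gpr124ΔC/ΔC asks whether these genes were at lower levels without the whole receptor than with the ΔC allele. The mRNA of Adgra2 does not give the amount of receptor protein. The study measured that protein and found less ΔC receptor in brain endothelial cells, at the surface and in total. Absence of the domain and this lower amount of receptor cannot be told apart in the Gpr124ΔC/ΔC libraries. This contrast did not choose the genes, although it uses the same mutant libraries. Igsf5 was lower in Gpr124-/- by a log2 fold change of −1.66 (standard error 0.314, adjusted p = 0.00608, edgeR). Slc44a5 was lower by −1.35 (standard error 0.318, adjusted p = 0.0195, edgeR). Both were called, while Dab2, at −0.79 (standard error 0.199, adjusted p = 0.0264, edgeR), passed the threshold on p but not that on the fold change. Tgfa did not pass, at −0.28 (95% interval −0.81 to 0.24, adjusted p = 0.512, edgeR), and its interval does not show that the mutants are alike. Of all tested genes, 1.94% were called lower and 2.67% higher in this comparison. Since the 4 genes had been picked for low levels in Gpr124-/-, their count is not read against that share. Among the 163 genes called lower in both mutants, which include 3 of the 4, 79 (48.5%) were called lower in Gpr124-/- than in Gpr124ΔC/ΔC.

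**Figure D2:**
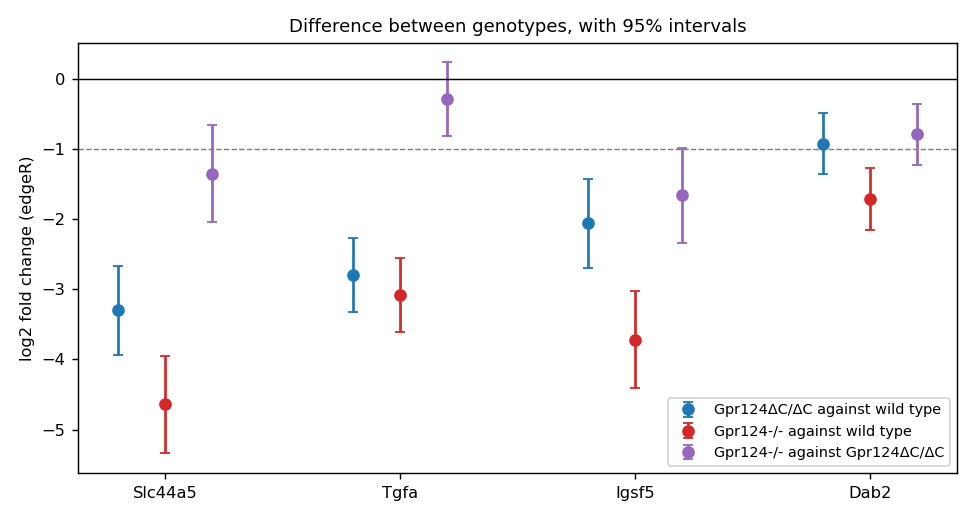
Log2 fold changes from edgeR (points) with their 95% intervals (bars) for the 4 genes in the 3 comparisons, with a dashed line at −1. The interval of Gpr124-/- against Gpr124ΔC/ΔC spans 0 only for Tgfa (−0.81 to 0.24), and that of Dab2 in Gpr124ΔC/ΔC spans −1 (−1.35 to −0.49).

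On TPM, a two-sided exact permutation of the 8 mutant embryos (70 arrangements) gave p = 0.0286 for Igsf5, the smallest p this design allows, and p = 0.0571 for Slc44a5, 0.0571 for Dab2 and 0.343 for Tgfa. Adjusted over the 4 tests, the exact permutation p was 0.0762 for the first 3 and 0.343 for Tgfa. The mutants overlapped in Slc44a5 between JE3, the library with the large share of Gm23935, and ME4, and in Dab2 between JE3 and KE4. In CPM, which takes no account of gene length, JE3 had 1.52 CPM of Slc44a5 against at most 1.38 in Gpr124-/-, and 71.6 CPM of Dab2 against at most 70.3, and the same exact permutation test gave p = 0.0286 (adjusted 0.0381) for Slc44a5, Igsf5 and Dab2. With Gm23935 left out of the TPM, the exact permutation p adjusted over the 4 tests was 0.0571 for Slc44a5 and Igsf5 and 0.0762 for Dab2, and Slc44a5 no longer overlapped, while for Dab2 JE3 (29.2) stayed below KE4 (29.5).

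With single embryos left out, the difference in Dab2 between the mutants was −1.01 to −0.63, and its adjusted p (edgeR) crossed the threshold in 5 cases, at 0.0704 without LE2, 0.0821 without LE5, 0.0878 without ME1, 0.0567 without ME4 and 0.0538 without ME5. That of Slc44a5 was 0.0657 without LE5 and 0.054 without ME5 (edgeR), whereas that of Igsf5 stayed between 0.000535 and 0.0254 with each embryo left out in turn. The first letter of the embryo labels, whose meaning is not given, runs partly along genotype: J and L hold wild-type and Gpr124ΔC/ΔC embryos, K holds KE8 and KE4, and M holds the other 3 Gpr124-/- embryos. No letter holds both mutants. In a fit with the letter as a term, letter M, which holds only Gpr124-/- embryos, takes up ME1, ME4 and ME5. Each value of Gpr124-/- in that fit rests on KE4 against KE8, so it cannot separate letter from genotype. The difference between the mutants was then −1.94 for Slc44a5, −1.81 for Igsf5 and −0.24 for Dab2.

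Values within letters are given as a description, since the genes were chosen for low levels in these libraries, and letter M holds no wild-type embryo. Among J embryos (2 against 2), the log2 ratio of mean CPM of Gpr124ΔC/ΔC to wild type was −3.25 for Slc44a5, −2.77 for Tgfa, −2.41 for Igsf5 and −1.02 for Dab2. Among L embryos (2 against 1), it was −3.52, −2.78, −1.94 and −0.92 in the same order. The single K pair, KE4 (Gpr124-/-) and KE8 (wild type), gave −5.32, −3.22, −4.03 and −1.22. KE4 thus had less Slc44a5 and Igsf5 and more Dab2, relative to its wild-type partner, than the average Gpr124-/- embryo.

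The 4 genes did not vary alike among embryos of one genotype. In wild type, Slc44a5, Igsf5 and Dab2 had the same order of embryos by CPM, from JE6 through JE1 and KE8 to LE6, while Tgfa had JE1 highest and LE6 lowest. In Gpr124ΔC/ΔC, JE3 was lowest and LE5 highest for those same 3 genes, while for Tgfa LE2 was lowest and JE4 highest. In Gpr124-/- the order no longer ran together: KE4 was lowest for Slc44a5, at 0.69 CPM, but highest for Dab2, at 70.3 CPM. With 4 embryos per genotype, these orders are descriptions.

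Among the other genes of choline transport and phosphatidylcholine synthesis, 2 of the 13 tested were called, both lower in both mutants, and the list median was −0.08 in Gpr124-/- and −0.05 in Gpr124ΔC/ΔC. Of all tested genes, 4.21% were called lower in Gpr124-/-, 1.03% in Gpr124ΔC/ΔC and 1.94% between the mutants. Mfsd2a, the transporter of lysophosphatidylcholine-bound fatty acids at the BBB, was at 1320 ± 165 TPM (SD, n = 4) in wild type, 460 ± 191 in Gpr124ΔC/ΔC and 87.5 ± 36.0 in Gpr124-/-. Its log2 fold change was −1.62 (adjusted p = 0.00443, edgeR) and −3.96 (adjusted p = 1.86e-06, edgeR) in the 2 mutants, and −2.35 (adjusted p = 0.000447, edgeR) between them. Flvcr2, a choline transporter of brain endothelium, was at 239 ± 30.3 TPM (SD, n = 4), 108 ± 34.8 and 28.9 ± 13.0. It fell by 1.24 (adjusted p = 0.0134, edgeR) and 3.10 (adjusted p = 4.88e-06, edgeR) on the log2 scale. Flvcr2 was also lower in Gpr124-/- than in Gpr124ΔC/ΔC, by −1.86 (adjusted p = 0.00109, edgeR). With the letter as a term, and so with KE4 alone from Gpr124-/-, the differences between the mutants were −1.83 for Mfsd2a and −1.30 for Flvcr2. The call of Flvcr2 in Gpr124ΔC/ΔC was lost without JE4 (−1.17, adjusted p = 0.053, edgeR) and without both JE3 and JE6 (−1.15, adjusted p = 0.0739, edgeR).

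The relatives of Slc44a5 in its family were not called lower. Slc44a2 averaged 59.8 TPM in wild type, 85.3 in Gpr124ΔC/ΔC and 105 in Gpr124-/-, and its log2 value of 0.77 in Gpr124-/- (adjusted p = 0.00109, edgeR) was below the fold threshold. Slc44a1 averaged 28.5, 35.3 and 51.6 TPM, and its log2 value in Gpr124-/- was 0.80 (adjusted p = 0.158, edgeR). Slc44a3 averaged at most 0.536 TPM in a genotype and did not pass the test, and Slc44a4 had too few reads to be tested. The enzymes Chka, Chkb, Pcyt1a, Pcyt1b, Chpt1, Cept1 and Pemt, which build phosphatidylcholine from choline or by methylation, were not called in any comparison.

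Of the EGF family ligands, receptors and regulators other than Tgfa, 13 of 20 were tested and none was called in any comparison by edgeR or DESeq2. Shares called over all tested genes were 4.21% lower and 5.67% higher in Gpr124-/-, and 1.03% and 0.89% in Gpr124ΔC/ΔC. At an unadjusted p under 0.05 there were 3 in Gpr124-/-, 3 in Gpr124ΔC/ΔC and 2 between the mutants. No share of all tested genes is given for cuts on p alone, so counts at those cuts are not read as a result. The list medians were −0.08 in Gpr124-/- and −0.14 in Gpr124ΔC/ΔC. Hbegf, another ligand of the EGF receptor, was at 140 ± 26.9 TPM (SD, n = 4) in wild type, 131 ± 31.3 in Gpr124ΔC/ΔC and 127 ± 17.5 in Gpr124-/-, its fold change being −0.17 in Gpr124-/- on the log2 scale (adjusted p = 0.512, edgeR). Tgfa was thus the less abundant of these 2 ligands in each genotype. The receptor Egfr itself averaged at most 0.189 TPM in a genotype and Erbb4 at most 0.237, with no difference past the test. Erbb2, a co-receptor without a ligand of its own, was the receptor found at a higher level, 28.2 ± 3.71 TPM (SD, n = 4) in wild type, 38.9 ± 7.19 in Gpr124ΔC/ΔC and 34.0 ± 4.16 in Gpr124-/-, and its log2 fold changes of 0.37 (adjusted p = 0.158, edgeR) and 0.22 (adjusted p = 0.274, edgeR) did not pass. Erbb3, with means of at most 0.123 TPM, was not tested. On p alone, 2 of the list passed in Gpr124-/-, the sheddase gene Adam10 at −0.83 (adjusted p = 0.00967, edgeR) and Errfi1, a feedback inhibitor of the EGF receptor, at 0.62 (adjusted p = 0.0102, edgeR), and between the mutants Adam10 passed at −0.69 (adjusted p = 0.0474, edgeR). Adam17, the main sheddase of the TGFα precursor, was at −0.08 in Gpr124-/- on the log2 scale (adjusted p = 0.783, edgeR).

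None of the other junctional immunoglobulin proteins and PDZ partners was called, of 13 tested among 17. In Gpr124-/- 7 of them passed the threshold on p alone. At an unadjusted p under 0.05 there were 8 there, 5 in Gpr124ΔC/ΔC and 5 between the mutants, and DESeq2 called 0 in each. With both thresholds, 4.21% of all tested genes were called lower and 5.67% higher in Gpr124-/-, and 1.03% and 0.89% in Gpr124ΔC/ΔC. For cuts on p alone no share of all tested genes is given, so those counts are not read as a result. The list medians were −0.30 in Gpr124-/- and −0.17 in Gpr124ΔC/ΔC. The nearest to the fold threshold was Jam2, a junctional adhesion molecule of endothelium, at −0.95 (adjusted p = 0.00768, edgeR) in Gpr124-/-, and it was called there without JE1, JE6, KE4 or ME4. Jam3, its relative, had 0.69 (adjusted p = 0.0015, edgeR) in the opposite direction. Magi1, the scaffold known to bind JAM4, had 0.18 (adjusted p = 0.409, edgeR).

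Among clathrin adaptors and lipoprotein receptors, 3 of 26 tested genes were called in Gpr124-/-, 1 lower and 2 higher, with a median of 0.01. In Gpr124ΔC/ΔC 1 was called lower, with a median of −0.07. DESeq2 called 2 in Gpr124ΔC/ΔC, and with 1 embryo left out edgeR called 1 to 3 in Gpr124-/- and 1 to 2 in Gpr124ΔC/ΔC. Of all tested genes, 4.21% were called lower and 5.67% higher in Gpr124-/-, and 1.03% and 0.89% in Gpr124ΔC/ΔC. The gene lower in both was Lrp8, the receptor for reelin and a partner of Dab proteins, at 204 ± 47.1 TPM (SD, n = 4) in wild type, 83.2 ± 14.8 in Gpr124ΔC/ΔC and 29.5 ± 8.46 in Gpr124-/-. Its log2 fold changes were −1.37 (adjusted p = 0.00413, edgeR) and −2.85 (adjusted p = 3.99e-06, edgeR). Lrp8 was lower in Gpr124-/- than in Gpr124ΔC/ΔC by −1.48 (adjusted p = 0.00214, edgeR). With the letter in the model, and so with KE4 alone from Gpr124-/-, this value was −1.13. In Gpr124-/- Vldlr, another reelin receptor, rose by 1.10 (adjusted p = 0.0307, edgeR) and Numbl, an adaptor related to Numb, by 1.34 (adjusted p = 0.0394, edgeR), both from below 1 TPM. With 1 embryo left out, the call of Vldlr was lost without JE1, JE6, LE6, ME1 or ME5, at 0.91 to 1.10, and that of Numbl without KE8, LE6, ME1, ME4 or ME5, at 1.04 to 1.36. In the fit with the letter, which rests on KE4 against KE8, Vldlr was at 0.11 and Numbl at 2.59 in Gpr124-/-. Between the mutants Numbl was at 2.62 there. The clathrin genes Clta, Cltb and Cltc and the AP2 subunit genes were not called.

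**Figure D3:**
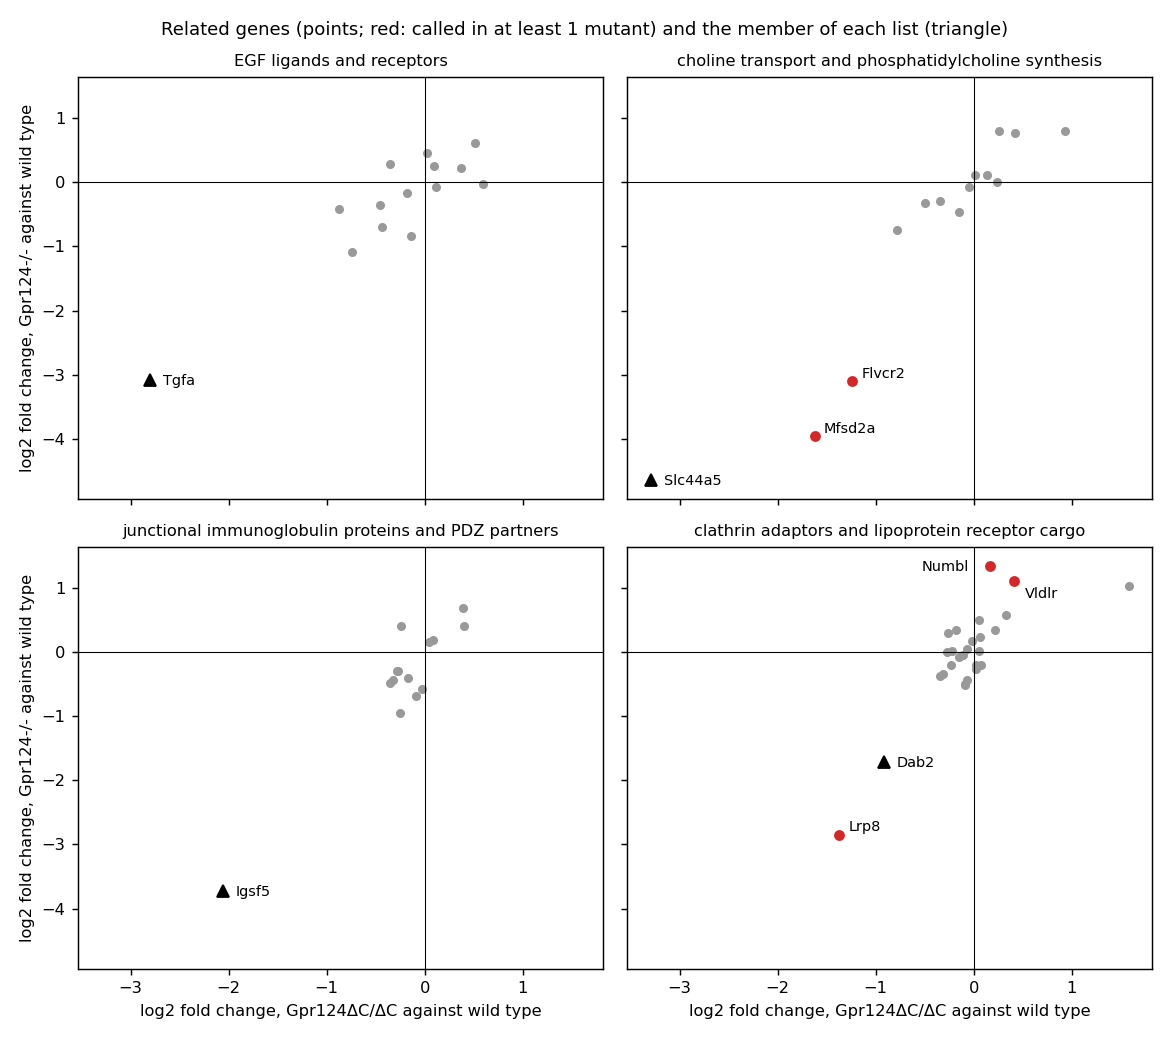
Log2 fold changes of the related genes in Gpr124ΔC/ΔC (horizontal axis) and Gpr124-/- (vertical axis) against wild type, which share the wild-type libraries, with 1 panel per list, red points for genes called in either mutant and a triangle for the member of the list. The 4 triangles were chosen for low values on these axes, and the red points at the lower left are Mfsd2a, Flvcr2 and Lrp8, called lower in both mutants.

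Of the 41 tested genes that reach within 500 kb of one of the 4, 8 were called in Gpr124-/-, 5 lower and 3 higher, 1 was called lower in Gpr124ΔC/ΔC, and 4 were called between the mutants (3 lower and 1 higher). Of all tested genes, 4.21% were called lower and 5.67% higher in Gpr124-/-, 1.03% and 0.89% in Gpr124ΔC/ΔC, and 1.94% and 2.67% between the mutants. The median log2 fold change of the neighbours was −0.16 in Gpr124-/- and −0.02 in Gpr124ΔC/ΔC. None of 6 genes around Slc44a5 was called by edgeR or DESeq2. An unadjusted p under 0.05 was found for 4 in Gpr124-/-, 1 in Gpr124ΔC/ΔC and 2 between the mutants. The share of all tested genes under that cut is not given, so counts at it are not read as a result. The nearest tested neighbours of Slc44a5 were Acadm, a mitochondrial fatty acid dehydrogenase 28.8 kb away, and Tyw3, 305 kb away. In Gpr124-/- they were at −0.58 (adjusted p = 0.00083, edgeR) and −0.14 (adjusted p = 0.659, edgeR) on the log2 scale. Around Igsf5 none of 7 was called by edgeR or DESeq2, with 2 at an unadjusted p under 0.05 in Gpr124-/- and 0 in the other comparisons. Apart from Pcp4, which overlaps it, Lca5l and the neuronal adhesion gene Dscam were nearest on each side, at 0.15 (adjusted p = 0.807, edgeR) and 1.21 (adjusted p = 0.0979, edgeR) in Gpr124-/-.

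Around Dab2, 3 of 4 tested neighbours were called in Gpr124-/-. No tested gene lay within 500 kb on the side of lower coordinates. Osmr, the oncostatin M receptor, 373 kb from Dab2, was at 28.6 ± 5.02 TPM (SD, n = 4) in wild type, 13.1 ± 5.01 in Gpr124ΔC/ΔC and 5.86 ± 1.41 in Gpr124-/-, and it was called lower in both mutants, at −1.23 (adjusted p = 0.00456, edgeR) and −2.33 (adjusted p = 9.21e-06, edgeR). It was also lower in Gpr124-/- than in Gpr124ΔC/ΔC, by −1.10 (adjusted p = 0.00731, edgeR), and by −0.74 with the letter in the model. Fyb, an adaptor of immune cells and platelets and the nearest tested neighbour at 139 kb, rose in Gpr124-/- by 2.23 (adjusted p = 0.00143, edgeR). The pseudogene Gm7666 had −1.67 (adjusted p = 0.0106, edgeR) in Gpr124-/-. The fit with the letter rests on KE4 against KE8, and gave 0.80 for Fyb, −0.08 for Gm7666 and −2.08 for Osmr in Gpr124-/-. Around Tgfa, 5 of 24 were called in Gpr124-/- and none in Gpr124ΔC/ΔC by edgeR or DESeq2, with 2 in the latter at an unadjusted p under 0.05. Those 5 were Add2, a membrane skeleton gene and the nearest on one side (1.89, adjusted p = 0.00105, edgeR), Mxd1 (1.10, adjusted p = 0.00271, edgeR), Anxa4 (−1.36, adjusted p = 0.000512, edgeR), Nat8f1 (−1.31, adjusted p = 0.000408, edgeR) and the noncoding 2310040G24Rik (−1.52, adjusted p = 0.00432, edgeR). On the same single pair, the fit with the letter gave 2.25 for Add2, 0.23 for Mxd1, −0.82 for Anxa4, −1.17 for Nat8f1 and −0.63 for 2310040G24Rik. On the other side the nearest was the pseudogene Gm10443, at −0.37 (adjusted p = 0.169, edgeR).

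**Figure D4:**
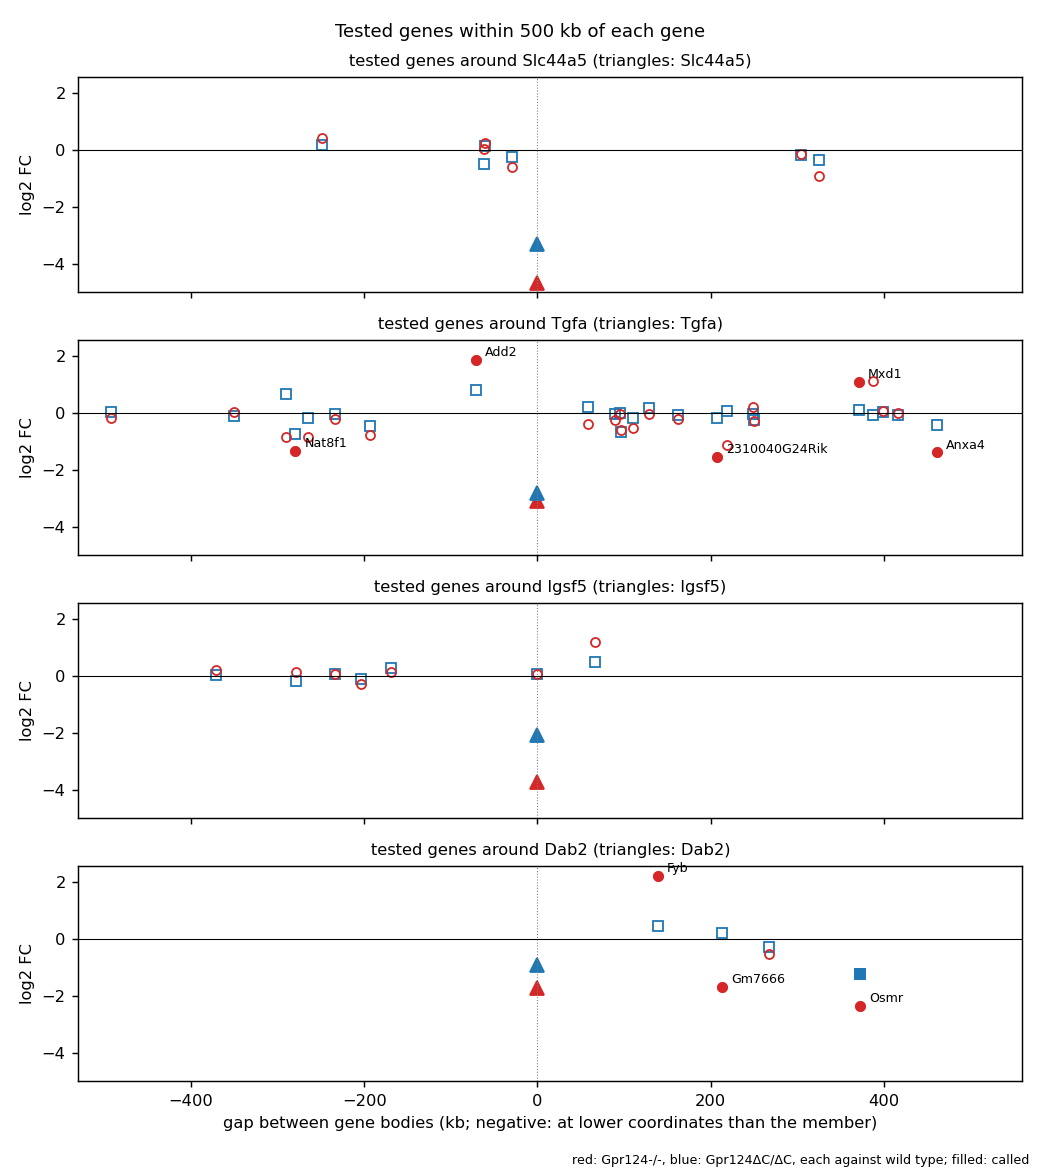
Log2 fold change against wild type of each tested gene within 500 kb (vertical axis) against the gap between its body and that of the named gene in kb (horizontal axis), in Gpr124-/- (red circles) and Gpr124ΔC/ΔC (blue squares), filled where called, with triangles for the named gene itself at 0 kb. In Gpr124ΔC/ΔC the 1 filled square is Osmr near Dab2, at −1.23.

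The genes most like each of the 4 over the 12 libraries were found by the root mean square difference of log2 CPM after each gene was centred on its own mean. This measure contains the genotype differences that chose the genes, and all profiles share the same libraries. This distance grows with the size of a gene's differences between genotypes. For Dab2 the nearest were Lmbr1 (0.149), the zinc and manganese transporter Slc39a8 (0.151) and the cholesterol exporter Abca1 (0.167). For Igsf5 they were Ly75, an endocytic receptor (0.268), Pglyrp1, a peptidoglycan recognition protein (0.350), and Angptl4, an inhibitor of lipoprotein lipase (0.351). For Tgfa they were the ligand gene Wnt5a (0.328), the secretory pathway kinase gene Fam20c (0.343) and Srarp (0.443). For Slc44a5 they were the sulfotransferase gene Chst9 (0.529), Igsf5 (0.545) and the thyroid hormone transporter Slco1c1 (0.611).

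Levels of these genes covered a wide range. Slco1c1 had 441 ± 92.7 TPM (SD, n = 4) among wild-type embryos, 64.3 ± 30.2 in Gpr124ΔC/ΔC and 11.6 ± 4.14 in Gpr124-/-, and Wnt5a went from 10 ± 1.71 to 1.90 ± 0.511 and 1.03 ± 0.10. Ly75 went from 29.3 ± 8.40 to 9.24 ± 4.02 and 2.33 ± 0.205 TPM (SD, n = 4). Its lowest Gpr124ΔC/ΔC embryo was JE3, as for Slc44a5, Igsf5, Dab2 and others of these genes, such as Slco1c1 and Abca1. Abca1 went from 224 ± 15.9 to 138 ± 31.4 and 72.0 ± 15.3 TPM (SD, n = 4). Igsf5 ranked 2nd of all tested genes for Slc44a5, while Slc44a5 ranked 22nd for Igsf5.

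**Figure D5:**
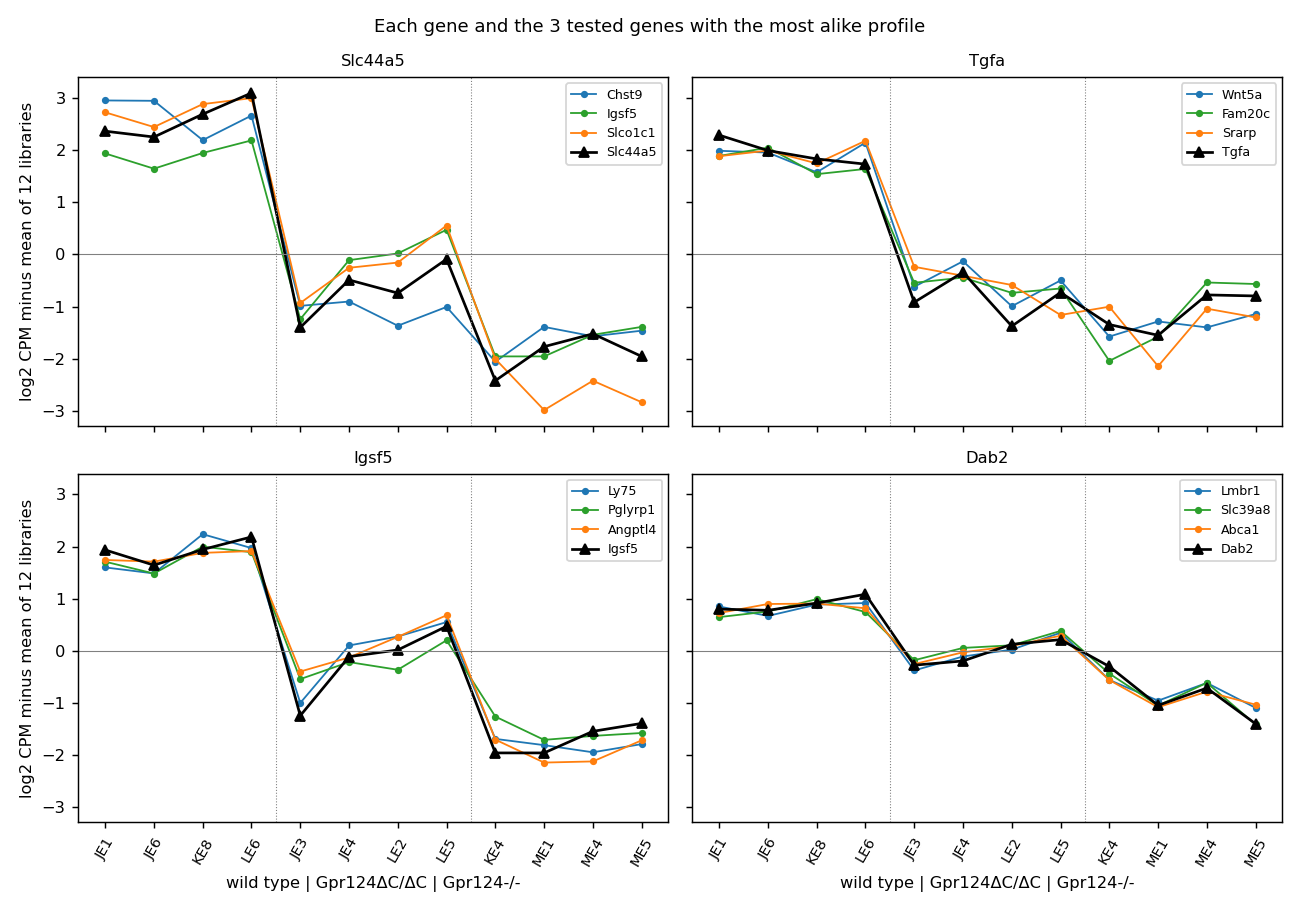
Log2 CPM of each gene minus its mean over the 12 libraries (vertical axis) across the embryos (horizontal axis, with dotted lines between genotypes), for each of the 4 genes (black triangles) and the 3 tested genes most alike (colored points). The root mean square distances to the matches are 0.149 to 0.167 for Dab2 and 0.529 to 0.611 for Slc44a5, a measure that grows with the size of the differences between genotypes.

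Markers of endothelial and other cells were read beside these genes. All 8 endothelial markers were well above 0, with summed TPM of 4220 to 5330 in wild type, 3680 to 5910 in Gpr124ΔC/ΔC and 4380 to 5320 in Gpr124-/-. Pecam1, which encodes CD31, averaged 491, 579 and 731 TPM, and 1 of the 8, Emcn, was called, higher in Gpr124-/- by 1.26 (adjusted p = 4.64e-07, edgeR). Under the fold threshold, Cdh5 (0.74, adjusted p = 0.00169, edgeR) and Pecam1 (0.54, adjusted p = 0.00778, edgeR) were higher there and Tek (−0.73, adjusted p = 0.00795, edgeR) and Erg (−0.41, adjusted p = 0.00683, edgeR) were lower, and 5 of the 8 were below 0, with a median of −0.11. Of the markers removed by the sort, Ptprc, which encodes CD45, was at 0.0822 TPM or less in every library and 0 in some of each genotype, and Pdgfrb, which encodes CD140b, averaged 2.58, 1.57 and 2.49 TPM.

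Dab2 is also made by macrophages, and the 11 macrophage markers summed to 17.2 to 25.3 TPM in wild type, 24.8 to 49.2 in Gpr124ΔC/ΔC and 42.4 to 75.1 in Gpr124-/-. Most of it was Fcer1g, at 12.6 ± 1.78, 21.3 ± 6.51 and 49.1 ± 20.5 TPM (SD, n = 4). Fcer1g was called higher in Gpr124-/- by 1.94 (adjusted p = 0.00166, edgeR). With the letter in the model, where KE4 against KE8 gives the value, it was at 0.78. The other 3 tested markers were not called higher. In Gpr124-/- Csf1r was at 0.04 (adjusted p = 0.973, edgeR), Cd68 at −0.20 (adjusted p = 0.801, edgeR) and Mrc1 at −1.42 (adjusted p = 0.0612, edgeR). Mrc1 was lower in Gpr124-/- than in Gpr124ΔC/ΔC (−1.75, adjusted p = 0.0446, edgeR), and at −1.36 with the letter in the model, again on KE4 alone. No macrophage marker was called between the mutants with any 1 of JE1, JE6, LE6, JE4, LE2, LE5, ME1, ME4 and ME5 left out. Too few reads to be tested were found for 7 of the 11, among them Aif1 and Cx3cr1. Pericyte markers summed to 28.1 to 65.7, 14.2 to 32.0 and 33.4 to 40.7 TPM in wild type, Gpr124ΔC/ΔC and Gpr124-/-. In Gpr124-/- Abcc9 was called higher and Rgs5 lower among the 8, and 1 of the 8 was called without KE8. Fibroblast markers summed to 12.8 to 68.6, 9.03 to 17.9 and 12.7 to 15.3 TPM, with Pdgfra called lower of 5 tested and Twist1 without a read in Gpr124ΔC/ΔC.

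Neuronal markers summed to 66.4 to 147, 88.8 to 165 and 145 to 199 TPM, with Gap43 and Stmn2 called higher in Gpr124-/- of 8. Progenitor markers summed to 24.6 to 38.4, 21.2 to 38.3 and 31.9 to 43.0 TPM, with none of 5 called in Gpr124-/- by edgeR or DESeq2 and 0 at an unadjusted p under 0.05. Choroid plexus markers summed to 124 to 825, 156 to 1590 and 112 to 407 TPM, and in Gpr124-/- Aqp1 was called higher while the other 4 tested, Ttr, Folr1, Otx2 and Clic6, were below 0 and not called, with a list median of −1.01. Erythroid markers summed to 7010 to 11800, 5450 to 9890 and 17800 to 54200 TPM, and 5 of the 7 were called higher in Gpr124-/-, the α- and β-globin genes Hba-a1, Hba-a2, Hbb-bt and Hbb-bs and the heme synthesis gene Alas2. With the letter in the model, where KE4 against KE8 gives the values, these 5 were at 1.07 to 1.17, Rgs5 at −1.21 and Stmn2 at 0.54. Over all lists, 13 of 50 tested markers were called in Gpr124-/- (2 lower and 11 higher, against 4.21% and 5.67% of all tested genes) and 12 between the mutants (1 lower and 11 higher, against 1.94% and 2.67%), among them 6 of the 7 erythroid markers. With the letter in the model these 12 ranged from −1.36 (Mrc1) to 2.13 (Aqp1), again on KE4 alone from Gpr124-/-. In Gpr124ΔC/ΔC edgeR called 0 and DESeq2 3, with 13 at an unadjusted p under 0.05. The 3 that DESeq2 called were pericyte markers, and all 8 pericyte markers were below 0 in Gpr124ΔC/ΔC, with a median of −0.90 and 4 at an unadjusted p under 0.05. The part of these cells in the levels of Slc44a5, Tgfa, Igsf5 and Dab2 was not tested.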

How the data were processed

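RNA of sorted CD31+ forebrain cells was measured in 12 libraries, 1 per embryo, 4 per genotype. Per the labels, RNA was isolated with the PicoPure kit and libraries were made with SMART-Seq V4, and bcl2fastq 2.17 and mm10 are named in the submitters' processing notes. The aligner, counter and strand setting are not given in the sources used here. The authors deposited counts, which are reads per gene without normalization, and TPM, which the authors made from these counts and gene lengths. Of 49315 gene identifiers, 49056 were found in GENCODE vM21, which gave symbols.

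Counts were analyzed with edgeR 4.0.16 in R 4.3.3: filterByExpr by genotype, TMM factors (0.946 to 1.04) and 1 quasi-likelihood fit of the 12 libraries in which genotype was the sole term. Each adjusted p is from its quasi-likelihood test with Benjamini-Hochberg adjustment over 16637 genes. The thresholds on p (0.05) and log2 fold change (1) were the study's. Counts of genes at cuts on p alone stand without a share of all tested genes and are not read as results. Profiles used log2 CPM with a prior count of 2, and limma 3.58.1 and DESeq2 1.42.0 were alternatives. The genes, lists and tests were chosen with earlier results of these data known. Named genes were the 4 genes, every called gene of the 4 related lists with the ERBB receptors and Slc44a family, called and nearest neighbours within 500 kb, and the 3 most alike genes of each. Some uncalled list members (Hbegf, Adam10, Adam17, Errfi1, Jam2, Jam3, Magi1 and the enzymes of phosphatidylcholine synthesis) were named for their roles or after their values were seen. 1 gene of the clathrin list is not reported here and was left out of its counts. Cell type lists were endothelial, macrophage, pericyte, fibroblast, neuron, progenitor, choroid plexus and erythroid, and Esam stood in both the endothelial and the junctional list. The models were tested on simulated data. Replicates were separate embryos, treated as independent, and p-values set a difference against the spread between embryos. Letter M holds 3 of the Gpr124-/- embryos and no wild-type embryo, and the labels do not say which embryos were littermates. Depth was 13877572 to 22551163 counted reads per library, and 4 embryos per genotype limit the precision.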

Additional observations from a re-analysis of the deposited data

How the results depend on the processing

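Of 1633 alternative values, 1470 kept their direction, call or size. With the label letter as a term, values of Gpr124-/- rest on KE4 against KE8, and against wild type Slc44a5 was −5.31 and Dab2 −1.22. Between the mutants Slc44a5 was −1.94, Igsf5 −1.81 and Dab2 −0.24 in that fit. Gm7666 turned from −1.89 to 0.12 between the mutants there. With limma on log2(TPM + 1), which understates changes of low genes, Slc44a5 was −2.98 in Gpr124-/- and −2.41 in Gpr124ΔC/ΔC, Tgfa −2.52 and −2.30, and Igsf5 −3.01 in Gpr124-/-, with or without a filter. Between the mutants limma gave −0.57 for Slc44a5 (−1.18 with a pseudocount of 0.1) and −0.83 for Dab2 (−0.87 with 0.1), none past the threshold. Igsf5 passed with the filter, at −1.17 (adjusted p = 0.0324, limma), and with a pseudocount of 0.1, at −1.54 (adjusted p = 0.0263, limma). Without the filter it did not, at −1.17 (adjusted p = 0.0724, limma). Fitting the 2 mutants alone gave −0.79 for Dab2 (adjusted p = 0.0627, edgeR).

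Leaving out 1 embryo at a time gave −1.55 to −1.11 for Slc44a5, −0.44 to −0.09 for Tgfa, −1.91 to −1.40 for Igsf5 and −1.01 to −0.63 for Dab2 between the mutants. Without JE3 and JE6, chosen after seeing the data, Slc44a5 was −1.54 and Igsf5 −1.91. The exact permutation p was 0.0286 (adjusted 0.0571) for Slc44a5 with Gm23935 left out of TPM, and 0.0286 for Slc44a5 and Dab2 with CPM, both chosen after seeing the data.

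Related genes called in Gpr124-/- (5) numbered 3 to 6 with 1 embryo left out, and 3 without LE6, ME1 or ME5. Without a fold threshold they numbered 21 in Gpr124-/- and 8 between the mutants (3). The share of all tested genes called without a fold threshold is not given, so counts at that cut are not read as a result. Counts of calls with the letter are left out, since values of Gpr124-/- in that fit rest on KE4 against KE8. Neighbours called in Gpr124-/- (8) numbered 14 without a fold threshold. Those between the mutants (4) numbered 8 with DESeq2, 8 without a fold threshold, and 3 to 7 with 1 embryo left out (7 without KE4). In Gpr124ΔC/ΔC they numbered 1 to 2 (2 without LE6). Cell type markers called in Gpr124ΔC/ΔC (0) numbered 3 with DESeq2, 1 without a fold threshold and 0 to 2 with 1 embryo left out. Of the 3 genes most like each, 1 was kept for Slc44a5 on log2(TPM + 1), and with the Pearson measure 0 for Slc44a5, 0 for Igsf5 and 1 for Dab2. The cause of these changes was not tested.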

Other observations

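When profiles were compared by 1 minus the Pearson correlation of log2 CPM over the 12 libraries, which ignores how large the differences are, other genes came nearest. These values are descriptions, and all points share the libraries and the genotype differences that chose the 4 genes. For Slc44a5 the nearest were Tmem154 (0.0112), Bsg (0.0134), which encodes the glycoprotein basigin of the BBB, and Car4 (0.0148), a membrane-bound carbonic anhydrase. Bsg was among the abundant mRNAs, at 7400 ± 1300 TPM (SD, n = 4) in wild type, 2350 ± 576 in Gpr124ΔC/ΔC and 1390 ± 139 in Gpr124-/-. For Igsf5 they were Chst7 (0.00782), Ldlrad3 (0.00798) and Car4 (0.0087), of which Chst7 went from 144 ± 15.7 TPM (SD, n = 4) to 102 ± 26.3 and 70.8 ± 3.89. Car4 went from 12.8 ± 4.07 TPM (SD, n = 4) to 3.71 ± 1.41 and 1.56 ± 0.173. For Dab2 they were the monocarboxylate transporter family gene Slc16a4 (0.0133), Lmbr1 (0.0163) and the dynein heavy chain gene Dnah6 (0.018), and for Tgfa they were Chst9 (0.0196), Wnt5a (0.0267) and Fam20c (0.0289).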
